A study of Mus musculus with 2 samples.

Results

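Replication-dependent histone genes were taken as every gene of the deposited matrices whose symbol starts with Hist1h, Hist2h, Hist3h or Hist4h, which gave 67 of 32285 genes. By the type in the symbol, 6 encode the linker histone H1, 18 encode H2A, 18 encode H2B, 12 encode H3 and 13 encode H4. They were measured by single-cell RNA sequencing (scRNA-seq, 10x Genomics, 3′ chemistry) of muscle stem cells (MuSCs) sorted from the plantaris, a calf muscle, as VCAM+, CD31-, CD45- and SCA1- cells. One library came from sham-operated mice and the other from mice after 5 days of mechanical overload (MOV), in which synergist muscle is cut away so that the plantaris carries its load. Mice of both groups were Pax7rtTA; TRE-H2B-GFP, 26 weeks old, and had received doxycycline at 2.0 mg/ml in drinking water for 2 weeks. In this line Pax7 drives rtTA, so doxycycline switches on a fusion of histone H2B and GFP in MuSCs of both groups. By the study's methods, doxycycline was withdrawn for a washout period before surgery. Whether transcripts of the fusion add to the counts of H2B genes was not tested. The labels speak of 1 mouse for each library and the methods of several. Each group is 1 library, so differences were not tested against replicate error, and each interval below is a 95% interval that covers counting error only.

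Core histones H2A, H2B, H3 and H4 form the spool on which DNA is wound, and H1 binds the DNA between spools. The mRNAs of the replication-dependent genes are known to end in a short stem-loop in place of a poly(A) tail, to be bound there by the stem-loop binding protein SLBP, to accumulate in S phase and to be degraded when replication ends. Some members are also known to give polyadenylated transcripts in cells that no longer divide. A 3′ assay primes on poly(A), so transcripts that end at the stem-loop are seen only where a tail or an internal run of A lets them be primed.

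In the GENCODE annotation (release M21) of the same genome build as the matrices (mm10, GRCm38), 54 members lie on chromosome 13 between 21715763 and 23934851, and they held 96.1% of the 96039 UMIs of all members in the cells kept. On chromosome 3 there are 10 members (3.24% of UMIs), on chromosome 11 2 members (0.603%) and on chromosome 6 1 member, Hist4h4. The stem-loop was found in the annotated transcripts of 46 members. Of its 8 forms 4 are shown, because the commonest is shared by all types but H4. Capitals mark the paired bases of the stem and lower case the loop.

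26 members of H1, H2A, H2B and H3: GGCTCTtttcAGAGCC
7 members of H4: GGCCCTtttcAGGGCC
6 members of H1, H2B and H3: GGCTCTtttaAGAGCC
Hist1h4i and Hist2h4: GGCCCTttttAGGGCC

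In 23 members the annotated transcript ended within 100 bases of the stem-loop, in 23 it ran on past that point, and in 21 it held no stem-loop. Hist1h1c (chr13:23738808-23740367, plus strand) ran on for 840 bases, Hist1h4i (chr13:22040636-22041362, minus strand) for 330 bases and Hist3h2a (chr11:58954685-58956830, plus strand) for 1643 bases. Hist1h2bc (chr13:23684199-23692908, plus strand) had a spliced transcript of 2 exons with no stem-loop. The longest runs of A in the transcripts of 4 abundant or near-identical members are shown because an oligo-dT primer could bind there, and capitals mark the run.

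Hist1h2ap: cccgaaaagAAAAAAAAAAAAggctctttt
Hist1h2ao: cccgaaaagAAAAAAAAAAAAggctctttt
Hist1h2ae: taatctcgtAAAAAAAAcaaaggctc
Hist1h3c: atgctatttAAAAAAAggctctttt

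The run of 12 A in Hist1h2ap (chr13:21833026-21833507, minus strand) lay directly before the stem-loop, and Hist1h2ao (chr13:21810465-21810944, plus strand) had the same window. Over the last 300 bases, none of the 50-base words of Hist1h2ap were unique to it, and 13 members had fewer than 10% unique words. The longest run, 15 A in Hist1h2ac, went with 233 UMIs and a run of 11 A in Hist1h2be with 493 UMIs. Both runs lay past the stem-loop, so a transcript that ends there does not hold them. The runs of Hist1h2ap, Hist1h2ae and Hist1h3c lay 0 to 4 bases before it. Hist1h1b, with a run of 6 A and no stem-loop in its annotated transcript, had 10912 UMIs. Whether reads were primed at such runs was not tested. Counts of near-identical members may be split between copies by the alignment, so the copy is uncertain where Hist1h2ap (31843 UMIs) is set against Hist1h2ao (8 UMIs), and sums by type are less affected. Exons on the same strand were shared by Hist1h1e and Hist1h2be, by Hist3h2a and Trim17, by Hist1h2ac and Gm24991, by Hist2h2bb and Gm42743, and by Hist2h2aa1 and Hist2h3c1 with Gm20634, so their counts are uncertain in the same way.

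Promoters of 61 members were found in RefSeq (GRCm38.p6, 250 bases before to 50 after the start). The octamer ATTTGCAT on either strand was present in 13 of them, 7 of 17 H2A and 6 of 16 H2B promoters and none of the other types, with the first of 2 listed promoters of Hist1h2be used (it lacks the octamer and the other holds it), against 1.74% of 32851 promoters of the same length. CCAAT on either strand was in 52 members, against 37.4% of all promoters, and TATAAA on either strand in 35, against 13.6%. Matches of different motifs were counted on their own, whether or not they overlap. Of the H4 promoters, 3 of 12 held CCAAT, whereas every matched promoter of H1, H2A, H2B and H3 did. The promoters of 3 members are shown because their levels contrast below: Hist1h1b (chr13:21780576-21780875, minus strand) and Hist1h2ae (chr13:23571171-23571470, minus strand) were high in cycling cells, and Hist1h1c (chr13:23738557-23738856, plus strand) was also found in below-cut cells. Capitals mark the 3 motifs. A match is a description of the letters and not a measured binding site.

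Hist1h1b: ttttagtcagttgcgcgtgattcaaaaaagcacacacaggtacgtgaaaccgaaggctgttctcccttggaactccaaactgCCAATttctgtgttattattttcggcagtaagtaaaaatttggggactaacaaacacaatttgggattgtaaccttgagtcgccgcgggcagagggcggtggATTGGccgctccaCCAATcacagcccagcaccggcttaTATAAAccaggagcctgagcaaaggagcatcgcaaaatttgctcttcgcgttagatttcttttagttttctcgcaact
Hist1h2ae: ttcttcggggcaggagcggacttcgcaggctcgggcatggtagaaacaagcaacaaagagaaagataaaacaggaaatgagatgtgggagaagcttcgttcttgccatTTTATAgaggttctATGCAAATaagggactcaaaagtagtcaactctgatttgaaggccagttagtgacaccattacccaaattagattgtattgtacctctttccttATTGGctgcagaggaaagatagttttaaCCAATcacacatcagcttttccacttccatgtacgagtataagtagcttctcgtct
Hist1h1c: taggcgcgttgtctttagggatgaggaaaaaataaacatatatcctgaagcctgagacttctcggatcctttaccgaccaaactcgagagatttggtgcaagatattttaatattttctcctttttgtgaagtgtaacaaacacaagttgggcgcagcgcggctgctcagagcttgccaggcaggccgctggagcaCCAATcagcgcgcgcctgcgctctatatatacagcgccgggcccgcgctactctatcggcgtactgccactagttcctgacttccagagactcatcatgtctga

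The MOV library held 3854 cells, 88498487 UMIs and a median of 16836 UMIs per cell, and the sham library 1100 cells, 7302661 UMIs and a median of 4116.5. Cells were clustered without the histone members and named by marker genes. MuSC-like cells (6 clusters) were named by Pax7 and other MuSC markers, Pdgfra cells (3 clusters) by fibro-adipogenic markers, and myocyte-like cells (1 cluster, 67 cells, all from MOV) by Myog, Mymk and Actc1, with Myog at 1719 CPM (the summed UMIs of a gene per 1000000 UMIs of the class) and Pax7 at 27.9 CPM. Fibre-like cells (5 clusters) expressed Acta1 at 53782 CPM in sham, and the MOV cells of these clusters, with Acta1 at 8925 and Myog at 2253 CPM, went against the name and enter no comparison. The libraries shared 44 barcodes, and none of the MOV copies, with at most 2057 UMIs, entered a class. Of the sham copies 35 did, 22 of them in fibre-like cells.

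S phase was set in each MuSC-like or Pdgfra cell with at least 3000 UMIs by the sum of Rrm2, Mcm5 and Pcna, and G2/M by the sum of 9 mitotic genes, with cuts of 2.09 and 4.38 UMIs per 10000 and at least 3 UMIs of the list. Both cuts were Otsu thresholds, which split values into a low and a high group, over MuSC-like cells of both libraries. The same cuts were used in Pdgfra cells. Cells above the G2/M cut were called G2/M, the other cells above the S cut S-phase, and the rest below-cut. In MOV this gave 239 S-phase, 547 G2/M and 646 below-cut MuSC-like cells, and 49, 168 and 410 Pdgfra cells. Sham gave 28, 9 and 80 MuSC-like cells. In the G2/M MuSC-like class of MOV, Myog was at 86.8 CPM, above Pax7 at 56.7 CPM. Cluster 6, which held 171 of these 547 cells, had Pax7 at 36.3 and Myog at 109 CPM over both libraries. Of 9 S-phase genes outside the lists, 9 were at least 2-fold higher in S-phase than in below-cut MuSC-like cells of MOV, and 7 of 8 further G2/M genes were at least 2-fold higher in G2/M than in S-phase cells. The classes were not cleanly apart: 7 of the 8 G2/M genes were also at least 2-fold higher in S-phase than in below-cut cells, and 9 of the 9 S-phase genes in G2/M than in below-cut cells. The classes are ranges of a score, with 292 of 1549 MuSC-like cells of both libraries within 1.5 times of the S cut and 101 within 1.5 times of the G2/M cut.

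Histone transcripts were more abundant in S-phase than in below-cut MuSC-like cells, mostly through cells of 1 cluster. Summed over all members they reached 1980.1 CPM (1946 to 2015) in S-phase cells and 158 CPM (150.4 to 165) in below-cut cells, a ratio of 12.6 (11.96 to 13.21). The classes sat in different clusters: the 77 S-phase cells of cluster 0, which had no below-cut cell, held 10082 of the 12551 histone UMIs of S-phase cells. In the clusters with at least 10 cells of both classes (148 S-phase and 643 below-cut cells), a comparison chosen after the data had been seen, the log2 ratio was 0.87 (0.76 to 0.99) in place of 3.65, and 5 of 13 members were at least 2-fold higher. The ratios of types and members below are over all clusters. Of 35 members with at least 20 UMIs over both classes, the minimum for a comparison, 32 were at least 2-fold higher in S-phase cells, where 6.54% of all 11623 genes compared passed the same limit. None were 2-fold lower, against 4.46% of all genes. Members that reached the minimum only through S-phase cells had to differ, so the count is a description: 11 members reached 20 UMIs in below-cut cells alone, and 8 of these were at least 2-fold higher. Without a minimum the count was 46 of 61. The median log2 ratio of all genes was -0.06. Depth differed between these classes, with a median of 22714 UMIs per S-phase and 15549 per below-cut cell, and Pax7 was at 77.5 and 115 CPM. With phase set by the mean sums of each cluster instead of cell by cell, the log2 ratio of the sums was 0.31, and 2 of 14 members were at least 2-fold higher. The share over all genes was not computed for this count or for the 5 of 13, so both are descriptions.

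By type, H2A stood apart from the other core histones. H2A summed to 1103 CPM in S-phase and 27.9 CPM in below-cut MuSC-like cells, a 39.6-fold ratio (35.4 to 44.4). H3 summed to 102 and 6.47 CPM (15.8-fold), H1 to 508 and 47.9 CPM (10.6-fold), and H4 to 127 and 22.6 CPM (5.63-fold). H2B gave the smallest ratio, 139 against 52.7 CPM (2.64-fold, 2.38 to 2.94). One H2B member, Hist1h2bc, held 92.7% of the H2B UMIs of below-cut cells. The core histones of a nucleosome are used in equal numbers, but the sums by core type were not equal in any class. In S-phase cells H2A held 55.7% of all histone UMIs, H2B 7.04%, H4 6.44% and H3 5.17%, and the linker H1 held 25.6%. A UMI counts 1 end of a transcript, so no scaling by length applies, and whether the order is that of the mRNAs in the cell was not tested.

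**Figure D1:**
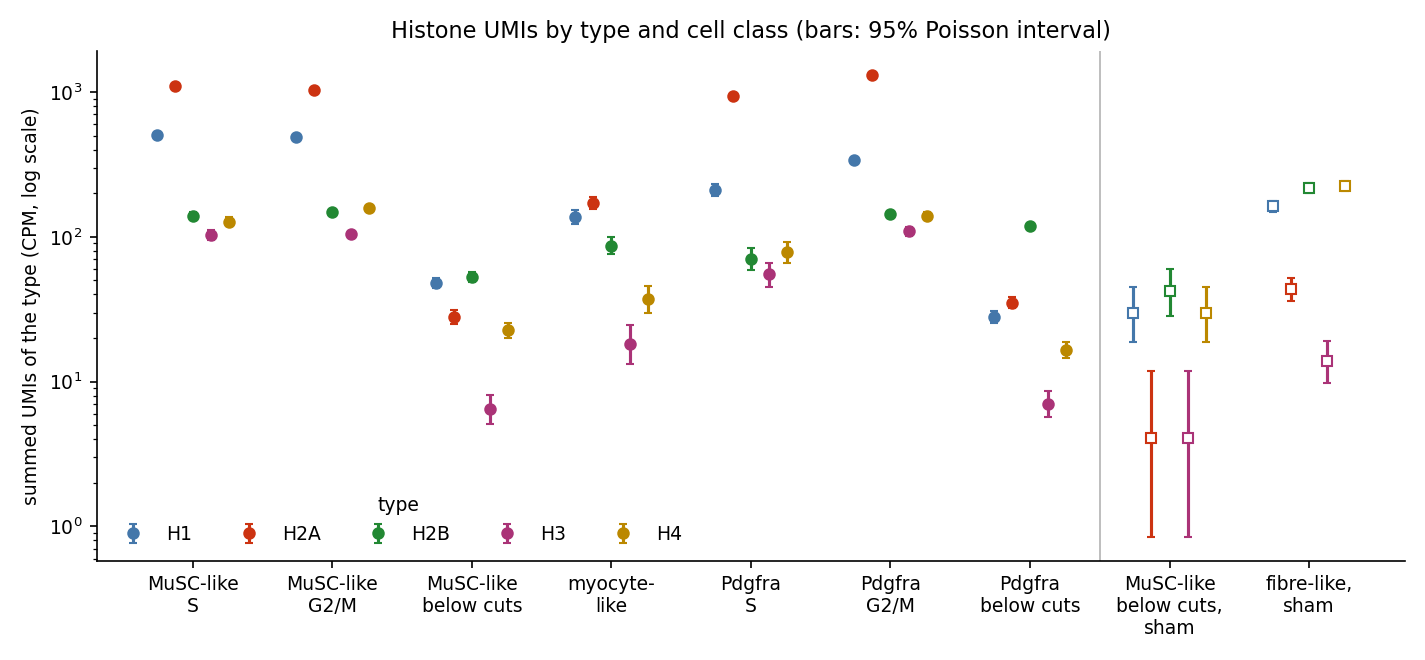
Summed UMIs of each histone type (y axis, CPM, log scale) in 9 classes of cells (x axis), MOV with filled circles and sham with open squares. Bars are Poisson intervals at 95%. H2A is the highest type in every S-phase and G2/M class, whereas H2B is above H2A in the below-cut and sham classes.

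Among the linker histones, Hist1h1b went from 3.15 CPM in below-cut to 289 CPM in S-phase MuSC-like cells (36 and 1831 UMIs), a 91.8-fold ratio. Hist1h1a was rarer (0.175 and 30.4 CPM) and had the highest ratio of the members with a UMI in both classes, 174-fold, from 2 UMIs in below-cut cells (log2 interval 5.57 to 10.50). Hist1h1d (0.612 and 13.4 CPM) and Hist1h1e (14.2 and 123 CPM) were 21.9-fold and 8.66-fold higher. Hist1h1c, an H1 known to be made outside S phase as well, differed least, with 29.7 and 51.6 CPM (1.74-fold, log2 0.57 to 1.02). In below-cut cells Hist1h1c was the most abundant H1 with 62.0% of H1 UMIs, and in S-phase cells Hist1h1b was, with 56.9%. Hist1h1t, the testis H1, had 14 UMIs in all kept cells.

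Among H2A genes, Hist1h2ap stood above all other members, with 721 CPM in S-phase and 9.53 CPM in below-cut MuSC-like cells (4572 and 109 UMIs), a 75.7-fold ratio (log2 5.97 to 6.53). It alone held 36.4% of the histone UMIs of S-phase cells. Hist1h2ae followed with 282 and 7.08 CPM (39.9-fold) and Hist1h2ab with 34.5 and 0.524 CPM (65.9-fold). Hist2h2ac was at 20.5 and 0.874 CPM (23.5-fold). Hist1h2af had 23 UMIs in S-phase and none in below-cut cells, so its log2 ratio was at least 3.79 against a floor of 3 UMIs over the class. The other named members with enough UMIs differed less. Hist2h2aa1 was 3.29-fold higher (16.4 and 4.98 CPM). Hist3h2a, which lies on chromosome 11, was at 2.05 CPM in S-phase and 3.58 CPM in below-cut cells (log2 -0.81, -1.83 to 0.12). Hist1h2ag was at 1.10 and 0.175 CPM, below the minimum of 20 UMIs.

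Among H2B genes, Hist1h2bc differed little between classes, with 53.6 CPM in S-phase and 48.9 CPM in below-cut MuSC-like cells (340 and 559 UMIs, log2 0.13, -0.06 to 0.33) and 67.3 CPM in G2/M cells. All other H2B members compared were higher in S-phase cells. Hist1h2bb had 9.47 and 0.175 CPM (54.1-fold), Hist1h2bj 12.6 and 0.262 CPM (48.1-fold), Hist1h2bm 8.99 and 0.262 CPM (34.3-fold) and Hist2h2bb 11.8 and 0.350 CPM (33.8-fold). Hist1h2be, whose annotated transcript overlaps Hist1h1e, was at 9.78 and 1.31 CPM (7.46-fold). Hist1h2bh (1.89 and 0 CPM) and Hist1h2bk (1.26 and 0.350 CPM) had too few UMIs to be compared.

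Among H3 genes, Hist1h3c was the most abundant, with 45.3 CPM in S-phase and 0.961 CPM in below-cut MuSC-like cells (287 and 11 UMIs, 47.1-fold). Hist1h3b (12.6 and 0.350 CPM) was 36.1-fold, Hist1h3i (10.7 and 0.524 CPM) 20.5-fold and Hist1h3f (8.99 and 0.524 CPM) 17.1-fold higher. Hist1h3e was 14.0-fold (14.7 and 1.05 CPM) and Hist1h3a 6.32-fold higher (4.42 and 0.699 CPM). Hist1h3d (1.42 and 0.612 CPM), Hist1h3g (0.789 and 0.0874 CPM), Hist2h3c1 (0.631 and 1.14 CPM) and Hist2h3c2 (0.631 and 0.524 CPM) had fewer than 20 UMIs over both classes.

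Among H4 genes, Hist1h4d went from 8.48 to 52.2 CPM (6.16-fold), Hist1h4h from 4.81 to 27.1 CPM (5.64-fold), Hist1h4i from 7.34 to 29.0 CPM (3.95-fold) and Hist1h4c from 1.05 to 7.26 CPM (6.92-fold). Hist1h4a was 68.6-fold higher, from 1 UMI in below-cut cells (log2 interval 3.53 to 11.44). Hist4h4 was at 0.699 and 1.10 CPM. By annotated 3′ end, 10 of 23 members whose transcript ran past the stem-loop were at 1 CPM or more in below-cut cells. So were 3 of 23 that ended at it and 2 of 21 without one. Whether the annotated end is the end that was read was not tested.

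**Figure D2:**
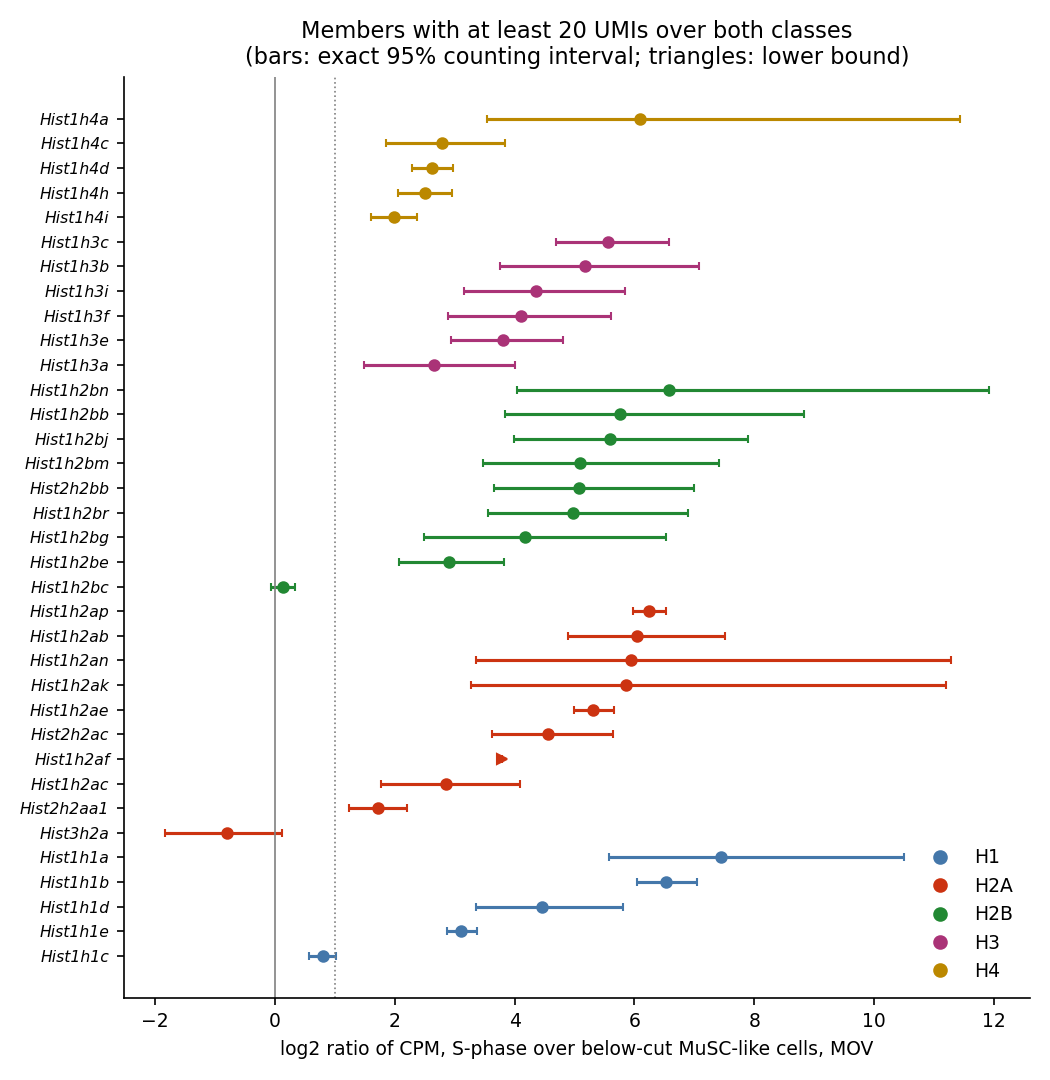
Log2 ratio of CPM in S-phase over below-cut MuSC-like cells of MOV (x axis) for each of the 35 members with at least 20 UMIs over both classes (y axis), with exact intervals at 95%. Hist3h2a, Hist1h2bc and Hist1h1c lie left of the dotted line at 2-fold, and the triangle is the lower bound of Hist1h2af.

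Single S-phase cells varied widely. The median S-phase MuSC-like cell of MOV held 2.10 histone UMIs per 10000 UMIs, the upper quartile was at 26.8 and the highest cell at 96.9. A level of 10 per 10000 was reached by 31.4% of S-phase cells (25.6 to 37.7), 46.6% of G2/M cells (42.4 to 50.9) and 0.464% of below-cut cells (0.0959 to 1.35). Levels differed between clusters, which had been built without the histone members. The 77 S-phase cells of cluster 0 held 4287 CPM and the 14 of cluster 6 held 2187 CPM. The 81 S-phase cells of cluster 3 held 247 CPM (225 to 271) against 185 CPM in below-cut cells of that cluster (170.2 to 200.4), with Hist1h2ap at 53.8 and 10.4 CPM. The 25 of cluster 5 held 452 against 146 CPM and the 13 of cluster 16 held 386 against 242 CPM. The 29 of cluster 1 held 90.8 against 101 CPM. Mcm3, a subunit of the replicative helicase, was at 270 CPM in S-phase cells of cluster 0 and 218 CPM in those of cluster 3, while Cdc6, which loads the helicase, was at 69.7 and 19.9 CPM and Ccne2, a cyclin of S-phase entry, at 90.1 and 24.2 CPM, and Top2a at 450.3 and 83.4 CPM. In S-phase cells of clusters 1 and 5 these markers were lower: Mcm3 was at 51.5 and 65.3 CPM (7.86 and 9.22 CPM in below-cut cells of the same clusters), Cdc6 at 0 and 4.45 CPM and Ccne2 at 2.45 and 5.93 CPM. The name S-phase is less sure for these 29 and 25 cells. In clusters 3 and 0 the median depth of these cells was 20728 and 28653 UMIs.

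**Figure D3:**
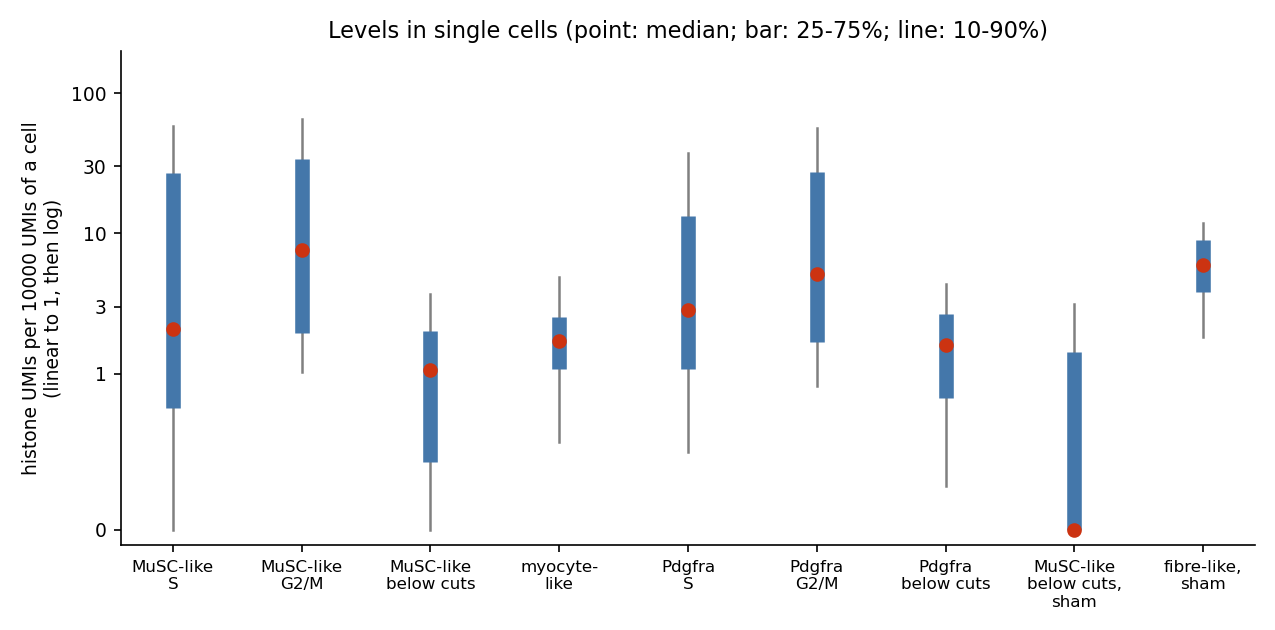
Histone UMIs per 10000 UMIs of a cell (y axis, linear to 1 and log above) in 9 classes (x axis), with the median as a point, the quartiles as a bar and the 10th to 90th percentile as a line. S-phase and G2/M classes reach far above 10, below-cut classes stay under 5, and fibre-like cells of sham sit around a median of 5.98.

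Histone levels were about the same in G2/M and S-phase MuSC-like cells as a whole, at 1939.7 and 1980.1 CPM (log2 -0.03, -0.06 to -0.001), but the value and its direction depended on how the classes were made. It was 0.70 with both cuts 1.5 times lower, -0.75 with both 1.5 times higher, 3.32 with phase set by cluster and 0.01 with TMM scaling. Within clusters the classes were not level. In cluster 0, 347 G2/M cells held 2762 CPM and 77 S-phase cells 4287 CPM. In cluster 6, 171 and 14 cells held 1294 and 2187 CPM. Cluster 3 went the other way, with 326 CPM in 21 G2/M cells and 247 CPM in 81 S-phase cells. H4 was 1.24-fold higher in G2/M cells (158 and 127 CPM, log2 0.20 to 0.42), and H2A, H1, H2B and H3 differed by less than 0.1 on the log2 scale. Of 49 members compared, 3 were at least 2-fold higher in G2/M cells (5.38% of all genes): Hist3h2a (5.10 and 2.05 CPM), Hist1h2ag (3.12 and 1.10 CPM) and Hist2h2ab (1.05 and 0.316 CPM, from 2 UMIs in S-phase cells, log2 interval -0.26 to 4.85). In the other direction 2 were at least 2-fold lower (3.75% of all genes), Hist1h2bp and Hist1h2bf, at 0.545 and 0.935 CPM in G2/M cells. All 5 had fewer than 20 UMIs in S-phase cells, and of the 34 members that reached the minimum there 0 were called in either direction. Against below-cut cells, 43 of 48 members were at least 2-fold higher in G2/M cells (11.6% of all genes) and 1 was lower (10.7% of all genes), Hist2h3c1. Of these 48, 37 reached the minimum only through G2/M cells or both classes together, and 8 of the other 11 were higher, so the count is a description. Hist1h2bh (3.47 CPM), Hist1h2bk (2.06), Hist1h3d (2.65), Hist1h3g (1.48) and Hist1h2af (4.60) were highest in the G2/M class among the MuSC-like classes of MOV, and the intervals of their ratios to S-phase cells included no difference.

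Histone levels varied widely along both sums. Below the G2/M cut, cells were split into 5 bins of equal size by the S sum, and total histone levels were 169.9, 150.1, 152 and 252 CPM in the first 4 bins and 2483 CPM in the highest. At or above the cut, 5 bins by the G2/M sum held 4101, 2629, 1889.7, 611 and 587 CPM, so that the highest level of all bins was in cells with the lowest G2/M sums above the cut. The G2/M sum is the axis of the bins and the histone levels were not used to set it. G2/M cells with an S sum above its cut (442 cells) held 2089.9 CPM, and those below it (105 cells) 796 CPM. Every type had its peak in the first G2/M bin: H2A at 2338 CPM, H1 at 1099, H4 at 238, H2B at 226 and H3 at 200.3 CPM. Hist1h2bc was between 47.0 and 74.6 CPM in the 10 bins, and at 111 CPM in the 105 G2/M cells below the S cut against 61.6 CPM in the other 442.

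**Figure D4:**
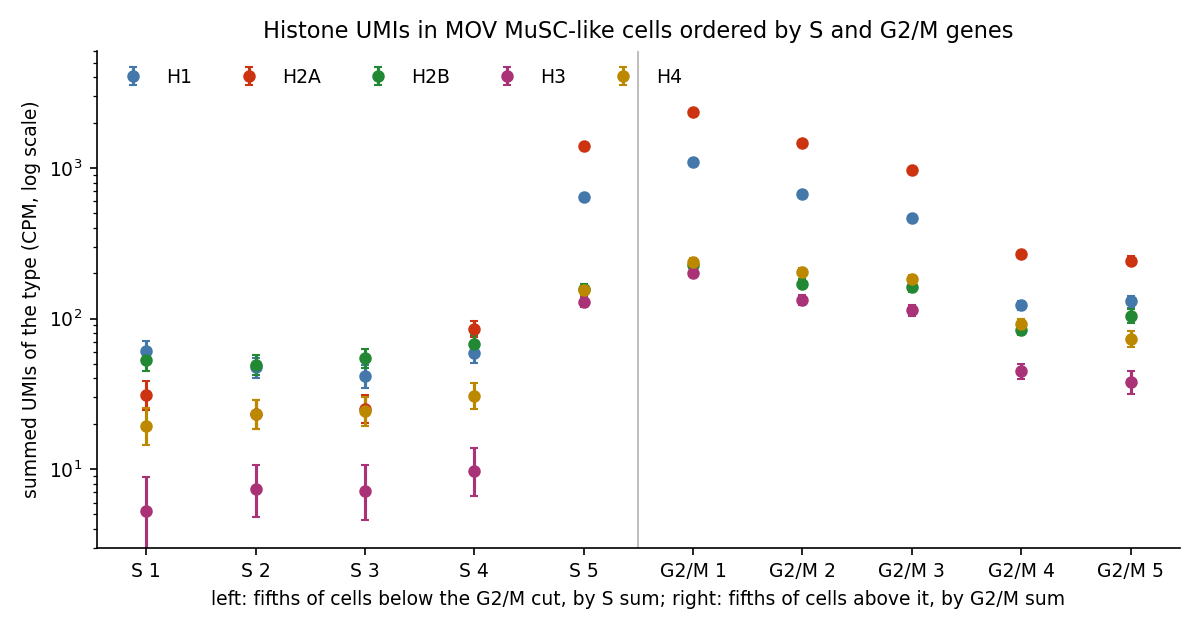
Summed UMIs of each histone type (y axis, CPM, log scale) in MuSC-like cells of MOV ordered by the phase genes (x axis), 5 bins by the S sum below the G2/M cut and 5 by the G2/M sum above it. Bars are Poisson intervals at 95%. Levels are low in the first 4 bins, peak in the first G2/M bin and are lower in the last 2.

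The histone pools of S-phase and G2/M cells were led by the same 4 members. Hist1h2ap held 36.4% and 34.7% of histone UMIs, Hist1h1b 14.6% and 14.6%, Hist1h2ae 14.3% and 13.3%, and Hist1h1e 6.23% and 6.47%. Across 63 members the CPM of both classes had a Spearman rho of 0.97, a description across genes of 1 library. Below-cut cells had another pool, led by Hist1h2bc (31.0%), Hist1h1c (18.9%) and Hist1h1e (9.04%), with Hist1h2ap at 6.05%. Of the members with a UMI in these 5 MOV classes (S-phase, G2/M and below-cut MuSC-like, myocyte-like and below-cut Pdgfra), 34 were highest in S-phase and 24 in G2/M cells. No minimum count was set and the same share over all genes was not computed, so the split is a description. Of the members with at least 20 UMIs in S-phase cells, 0 differed 2-fold between S-phase and G2/M cells. The other 5 were Hist1h2bc, Hist3h2a and Hist2h3c1, highest in below-cut Pdgfra cells, and Hist2h3c2 and Hist1h4j, highest in myocyte-like cells with 0.844 CPM each. These last values rest on 2 UMIs each. Hist2h3c2 was at 0.805 CPM in below-cut Pdgfra cells and Hist1h4j at 0.623 CPM in G2/M MuSC-like cells, so their rank is unsure. Hist1h2aa, Hist1h2ba and Hist1h2bq had no UMI in any kept cell, and 9 members had fewer than 20.

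At an equal depth of 3000 UMIs per cell, a UMI of any member was seen in 52.7% of S-phase, 72.0% of G2/M and 33.1% of below-cut MuSC-like cells, and without thinning in 87.0%, 98.7% and 77.4%. Hist1h2ap was seen in 32.2% of S-phase (26.3 to 38.5), 49.0% of G2/M and 2.63% of below-cut cells (1.54 to 4.18), and without thinning in 49.4% and 77.7% of the first pair and in 84 of 646 below-cut cells. The last class's share is not read as expression, since below-cut cells of tenocyte, immune, Schwann, endothelial and mural clusters of MOV all held Hist1h2ap at 7.05 to 15.7 CPM, around the 9.53 CPM of below-cut MuSC-like cells. Hist1h2ap was at 47.8 CPM in the fourth of the bins by S sum, and whether free RNA or cells near the S cut gave the UMIs of below-cut cells was not tested. Hist1h2bc was seen in 11.3% of S-phase and 12.8% of below-cut MuSC-like cells, and its level differed between types, as given below.

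Myocyte-like cells held more histone UMIs than below-cut MuSC-like cells, 451 against 158 CPM (2.86-fold, 2.65 to 3.09), but 64.6% of their histone UMIs came from 5 of 67 cells. Of 13 members compared, 7 were at least 2-fold higher (5.91% of all genes) and 0 lower (10.2% of all genes), and all 7 were also at least 2-fold higher in S-phase cells. Of the 11 members that reached the minimum in below-cut cells alone, 5 were higher. The 7 were led by Hist1h1b (49.4 and 3.15 CPM), Hist1h2ab (8.02 and 0.524 CPM) and Hist1h2ap (98.8 and 9.53 CPM). Hist1h3c, Hist1h2ae, Hist1h1e and Hist1h4h completed the 7, at 5.91, 44.3, 37.6 and 10.6 CPM. Hist1h2bc (74.3 CPM) and Hist1h1c (44.3 CPM) were 1.52-fold and 1.49-fold higher. With only myocyte-like cells below both cuts, an alternative chosen after the data had been seen, the log2 ratio of the sum was 0.41 (0.25 to 0.57) in place of 1.52. It was also lower with a mitochondrial limit of 5% (0.80), without integration of the libraries (1.08) and with the histone members among the clustering features (0.75), where the class held 133, 250 and 140 cells in place of 67. Top2a, a gene of dividing cells, was at 54.0 CPM in myocyte-like and 7.60 CPM in below-cut cells, and its link to the sum was not tested. The median myocyte-like cell held 1.72 histone UMIs per 10000 and the median below-cut MuSC-like cell 1.07.

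Pdgfra cells, fibroblast-like cells of the muscle interstitium that the sort should remove, also held S-phase and G2/M classes. Pdgfra was at 101 CPM and Pax7 at 0.951 CPM in their below-cut class. Histone UMIs summed to 1347 CPM in S-phase, 2034 CPM in G2/M and 206 CPM in below-cut Pdgfra cells of MOV. Of 22 members compared between S-phase and below-cut Pdgfra cells, 17 were at least 2-fold higher (6.77% of all genes), led by Hist1h1b (105 and 1.24 CPM), Hist1h2ap (609.9 and 7.32 CPM) and Hist1h1a (18.1 and 0.220 CPM). The 2 that were lower (5.19% of all genes) were Hist1h2bc, at 42.3 against 115 CPM (log2 -1.44, -1.77 to -1.12), and Hist2h3c1, at 1.01 against 2.34 CPM from 2 and 32 UMIs (log2 interval -4.32 to 0.75, which included no difference). Of the 12 members that reached the minimum in below-cut Pdgfra cells alone, 7 were higher and 2 lower, so the count of 17 is a description. Hist1h1c (16.1 and 22.6 CPM), Hist2h2aa1 (11.1 and 15.1 CPM) and Hist3h2a (3.02 and 5.49 CPM) had intervals that included no difference. In G2/M Pdgfra cells, 36 of 41 members were at least 2-fold higher than in below-cut cells (7.17% of all genes) and 1 lower (4.2% of all genes), but of the 12 members that reached the minimum in below-cut cells alone, 7 were higher and 1 lower. The 49 S-phase Pdgfra cells were few, and 5 of them held 50.8% of the class's histone UMIs.

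At the median, S-phase Pdgfra cells were not below S-phase MuSC-like cells, with 2.85 against 2.10 histone UMIs per 10000. A level of 10 per 10000 was reached by 32.7% against 31.4% of cells, while the upper quartile was 13.4 against 26.8. Of the 12551 histone UMIs of S-phase MuSC-like cells, 10082 came from cluster 0. Summed over cells, S-phase Pdgfra cells held less of every type. H1 was 0.413-fold (209.7 and 508 CPM), H2B 0.507-fold (70.6 and 139 CPM), H3 0.537-fold (54.9 and 102 CPM), H4 0.613-fold (78.1 and 127 CPM) and H2A 0.846-fold (933 and 1103 CPM, 0.803 to 0.891). Of 35 members, 19 were at least 2-fold lower (13.3% of all genes) and 0 higher (15.9% of all genes). Of these, 21 of the 35 had fewer than 20 UMIs in S-phase Pdgfra cells, and of the other 14, 5 were lower. Hist1h1b was at 105 and 289 CPM, Hist1h1c at 16.1 and 51.6 CPM, and Hist1h2br (1.01 and 11.04 CPM) and Hist1h3i (1.01 and 10.7 CPM) were among the lowest, each from 2 UMIs in Pdgfra cells. Hist1h2ap made up 45.3% of the histone UMIs of S-phase Pdgfra and 36.4% of S-phase MuSC-like cells. Within H2A the share of Hist1h2ap hardly varied, at 65.4% and 64.9% in S-phase and G2/M MuSC-like cells and 65.3% and 65.8% in the same classes of Pdgfra cells, and was 34.2% in below-cut MuSC-like cells.

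Below both cuts, Hist1h2bc was the leading member of both MuSC-like and Pdgfra cells. Below-cut Pdgfra cells had 206 CPM and below-cut MuSC-like cells 158 CPM (1.31-fold, 1.23 to 1.39). On the log2 scale this was 0.39, and 2.24 with phase set by cluster. Of 15 members compared, 3 were at least 2-fold higher in Pdgfra cells (18.7% of all genes): Hist2h2aa1 (15.1 and 4.98 CPM), Hist1h2bc (115 and 48.9 CPM) and Hist2h3c1 (2.34 and 1.14 CPM). Another 4 were at least 2-fold lower (14.9% of all genes): Hist1h1e (3.44 and 14.2 CPM), Hist1h4d (3.00 and 8.48 CPM), Hist1h1b (1.24 and 3.15 CPM) and Hist1h4h (2.27 and 4.81 CPM). With 15 members compared, neither count is read as a result about the members as a group. Hist1h2bc alone held 55.7% of the histone UMIs of below-cut Pdgfra cells. In below-cut cells of the smaller MOV clusters it was at 198 CPM in mural (147 to 261, 16 cells), 174 CPM in Schwann (143 to 211), 91.7 CPM in tenocyte, 59.7 CPM in immune and 41.7 CPM in endothelial cells (10 UMIs, up to 76.7). The endothelial and immune intervals included the level of MuSC-like cells, and the mural and Schwann intervals overlapped each other.

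**Figure D5:**
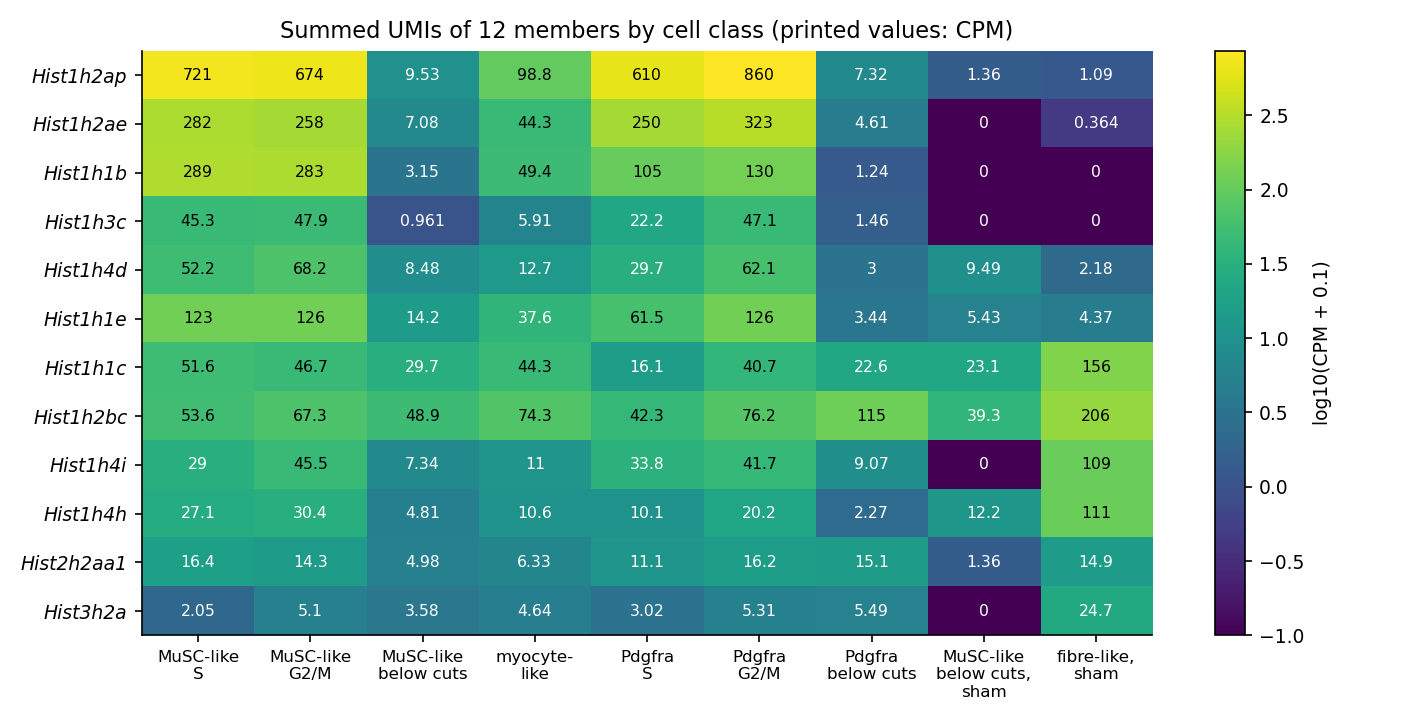
CPM of 12 members (rows) in 9 classes of cells (columns), printed in each field and coloured as log10 of CPM plus 0.1. Hist1h2ap, Hist1h2ae, Hist1h1b and Hist1h3c are high in the S-phase and G2/M columns, Hist1h2bc and Hist1h1c are present in every column, and Hist1h4i, Hist1h4h and Hist3h2a are highest in fibre-like cells of sham.

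In sham, the 80 below-cut MuSC-like cells held 81 histone UMIs, 109.9 CPM (87.3 to 137), against 158 CPM in MOV (log2 0.52, 0.20 to 0.86). With a mitochondrial limit of 5% it was 0.27, with an interval of -0.23 to 0.82 that included no difference. Different clusters held most of the class in each library: 65 of the 80 sham cells were in cluster 1, whereas 197 of the 646 MOV cells were there, 222 in cluster 5 and 174 in cluster 3. Within cluster 1 the sums were 83.9 CPM (61.2 to 112) in sham and 101 CPM (88.3 to 115) in MOV, a log2 ratio of 0.27 whose interval, -0.20 to 0.76, included no difference (a comparison chosen after the data had been seen). In cluster 16, 7 sham cells with 14 histone UMIs were at 399 CPM (218 to 669) and the MOV cells at 242 CPM. A library difference and a difference between surgeries cannot be told apart. Of 11 members compared, 3 were at least 2-fold higher in MOV (16.9% of all genes): Hist1h2ap and Hist2h2aa1, each with 1 UMI in sham, and Hist1h1e (14.2 and 5.43 CPM). Hist1h4h was lower in MOV (8.49% of all genes), with 4.81 and 12.2 CPM (log2 -1.34, -2.37 to -0.14). Only Hist1h2bc reached the minimum of 20 UMIs in sham alone, so the counts are descriptions. Hist1h2bc was at 48.9 and 39.3 CPM and Hist1h1c at 29.7 and 23.1 CPM, with intervals that included no difference. The median log2 ratio of all genes was 0.18. Acta1, the actin of fibres, was at 426 CPM in sham and 225 CPM in MOV below-cut cells, and its part in these differences was not tested. The 28 S-phase cells of sham held 539 CPM, of which 98.4% came from 5 cells, and 34.8 CPM without 2 cells whose barcodes were shared with MOV, so that class is not compared.

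Fibre-like cells of sham, in which Top2a and Mki67 had no UMI, held more histone UMIs than below-cut MuSC-like cells of the same library. Their 281 cells held 661 CPM against 109.9 CPM (6.01-fold, 4.81 to 7.61), and the sum was 599 to 694 CPM in each of the 4 clusters that held most of them. Without cells of shared barcodes the sums were 663 and 115 CPM. With TMM scaling the log2 ratio was 3.53 in place of 2.59. Of 7 members compared, 7 were at least 2-fold higher (27.8% of all genes) and 0 lower (45.3% of all genes), where the median log2 ratio of all genes was -0.68. Only Hist1h2bc reached the minimum of 20 UMIs in the below-cut cells alone, so the count of 7 is a description. Both pools were led by Hist1h2bc, Hist1h1c and Hist1h4h, and Hist1h2bc held 31.1% of histone UMIs in fibre-like and 35.8% in below-cut MuSC-like cells. Hist1h2bc was at 206 and 39.3 CPM (565 and 29 UMIs), Hist1h1c at 156 and 23.1 CPM, and Hist1h4h at 111 and 12.2 CPM. Hist1h4i was at 109 CPM with none seen in below-cut MuSC-like cells, at least 4.74 higher on the log2 scale, and Hist3h2a was at 24.7 CPM against none, at least 2.60 higher. Hist1h2ap had 1.09 CPM and Hist1h1b and Hist1h3c none, and a UMI of Hist1h2ap was seen in 3 of 281 cells (1.07%, 0.221 to 3.09), and in 0 at 3000 UMIs per cell (up to 1.30%). At 3000 UMIs per cell Hist1h2bc was seen in 44.5% (38.6 to 50.5), Hist1h1c in 36.3% and Hist1h4i in 26.3% of these cells, and without thinning in 71.9%, 60.5% and 44.1%, where the median depth was 6887 UMIs against 7800 in below-cut MuSC-like cells. Across 62 members the Spearman rho of CPM with S-phase MuSC-like cells of MOV was 0.31, and across 50 members it was 0.64 with below-cut MuSC-like cells of MOV, both descriptions.

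The H4 members of this pool differed between fibre-like clusters of sham, of which cluster 7 lost the fibre name when shared barcodes were left out. Hist1h4i was at 138 CPM (116 to 162) in cluster 7 and 144 CPM (109.4 to 186) in cluster 8, where Myh4, the fast myosin of type IIb fibres, was at 5392 and 4961 CPM. In cluster 15, where Myh2, the myosin of type IIa fibres, was at 1338 and Myh4 at 85.9 CPM, Hist1h4i was at 34.4 CPM (22.0 to 51.1). Hist1h4h was instead highest in cluster 15, with 70.6 CPM (55.7 to 88.4) in cluster 7, 77.0 CPM in cluster 8 and 169 CPM (139.9 to 202) in cluster 15. Cluster 14, with Myh4 at 2103 CPM, held both, at 124 and 139.7 CPM. Hist1h2bc varied less, from 189.9 to 218 CPM over the 4 clusters. Hist1h1c, no H4 member, also differed, with 96.9 CPM (68.9 to 132) in cluster 8 and 171 CPM (147 to 198) in cluster 7. It was at 156 CPM in cluster 14 and 163 CPM in cluster 15.

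The genes that act on histone mRNAs and on new histones were read beside them from a list of 26. Between S-phase and below-cut MuSC-like cells of MOV, 9 of 25 with enough UMIs were at least 2-fold higher and 0 lower, against the 6.54% and 4.46% of all genes given above. Asf1b and Chaf1b had fewer than 20 UMIs in below-cut cells (15 and 13) and reached the minimum through S-phase cells. The chaperones of the list included Asf1b (62.5 and 1.31 CPM, 47.7-fold), Chaf1b (49.5 and 1.14 CPM, 43.6-fold) and Chaf1a (35.7 and 1.92 CPM, 18.5-fold), of which the last pair are subunits of the factor that loads histones behind the replication fork. E2f1, an activator of S-phase genes, was at 48.6 and 3.06 CPM, Hat1, which acetylates new H4, at 163 and 26.5 CPM, and Nasp, a chaperone of histones, at 314 and 77.5 CPM. Slbp, which binds the stem-loop, was at 194.5 and 56.6 CPM (3.43-fold), Eri1, an exonuclease of its 3′ end, at 76.8 and 27.4 CPM, and Casp8ap2, a factor of the histone locus body, at 54.4 and 22.0 CPM. Npat, the coactivator of the histone genes, was at 24.6 and 14.2 CPM (1.74-fold), Lsm10 and Lsm11, of the particle that cleaves the pre-mRNA, at 11.99 and 13.98 CPM and 11.8 and 7.08 CPM, and Zfp473 had too few UMIs. Between G2/M and S-phase cells none of the 25 were 2-fold higher (5.38% of all genes), and Chaf1b (17.0 and 49.5 CPM) and E2f1 (17.1 and 48.6 CPM) were lower (3.75% of all genes).

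Of 10 histone genes listed as replication-independent, of which H2afx is known to give both a stem-loop and a polyadenylated mRNA, 4 were at least 2-fold higher in S-phase than in below-cut MuSC-like cells and 0 lower, beside 6.54% and 4.46% of all genes: H2afz (1545 and 418 CPM), H2afx (64.7 and 15.9 CPM), H2afy2 (6.78 and 1.57 CPM) and H1fx (33.0 and 13.1 CPM). Of these H2afy2 had 18 UMIs in below-cut cells and reached the minimum through S-phase cells. H3f3a and H3f3b, which encode the replacement H3, were at 1555 and 1392 CPM and at 1693 and 1376 CPM. Between G2/M and below-cut cells 7 of the 10 were at least 2-fold higher, beside 11.6% of all genes.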

How the data were processed

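The labels and the study's methods give 10x Genomics 3′ libraries, 1 for sham and 1 for MOV. The deposited matrices hold UMI counts per gene and cell, which the authors made with Cell Ranger 6.0.0 on mm10, and no columns of other samples were present. The members, lists and classes were chosen with earlier results of these data known. Cells with a mitochondrial share above 10% were removed, then 4 and 75 predicted doublets, at a rate that scales with the number of cells, which left 734 sham and 2985 MOV cells. Clustering used Seurat 5.3.0 in R 4.3.3 (anchor integration, 50 principal components, resolution 2) on 2985 of 3000 variable features after 15 members were taken out, and gave 25 clusters, of which 4 stayed unnamed. A cluster took the name of the highest-scoring of 10 marker lists (score: mean log difference from other cells) if at least 3 of its markers were detected and no other list had more markers among its top 10 genes, and shallow clusters with none of their own there stayed unnamed. A minimum score of 1 held for the fibre and Pdgfra lists alone. MuSC-like clusters scored 0.168 to 0.583 and the myocyte-like cluster 0.877. These rules were completed after the clusters were seen. Sums, Poisson and exact conditional intervals for counts and Clopper-Pearson intervals for shares were computed in Python 3.11.15 with scipy 1.17.1. CPM is the summed UMIs of a gene per 1000000 UMIs of the class. PCR duplicates are collapsed by UMIs, and intervals and floors cover counting error only. A gene was compared where both classes together held at least 20 UMIs, and called where it differed at least 2-fold. A floor of 3 counts over a class stood for 0, and a gene with no UMI in a class was never called higher there. Named members are the 6 with the most UMIs of each type and 8 more with at least 50 UMIs that were highest outside S-phase cells. Alternatives covered mitochondrial limits, doublets, resolution, integration, the clustering features, cuts, depth, TMM scaling (edgeR 4.0.16) and phase by cluster. Leaving out shared barcodes, G2/M cells below the S cut, myocyte-like cells below both cuts, below-cut cells of cluster 1 alone and clusters with both classes were added after the data had been seen. The shared barcodes number 44, of which 37 were kept in both libraries, and in these the MOV copy held a median of 0.0212 of the UMIs of the sham copy.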

Additional observations from a re-analysis of the deposited data

Results flagged for a closer look

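The summed H2B genes went opposite ways in S-phase against below-cut cells of MOV. In MuSC-like cells the log2 ratio was 1.40 (1.25 to 1.55), from 139 and 52.7 CPM, and in Pdgfra cells it was -0.76 (-1.02 to -0.51), from 70.6 and 119 CPM. The Pdgfra value rests on 49 S-phase cells, of which 5 held 50.8% of the histone UMIs, and G2/M Pdgfra cells held 143 CPM of H2B, above their below-cut class. The difference between the cell types was not tested, since both are classes of 1 library. Hist1h2bc held 92.7% of H2B UMIs in below-cut MuSC-like cells and 96.1% in below-cut Pdgfra cells, and its own log2 ratios were 0.13 and -1.44. The other H2B genes compared in Pdgfra cells, Hist1h2be (7.06 and 1.32 CPM) and Hist1h2bj (4.03 and 0.878 CPM), were at least 2-fold higher in S-phase cells, as they were in MuSC-like cells.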

How the results depend on the processing

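No paired analysis was possible because each group is 1 library. Phase set by cluster moved 6 results: the log2 ratio of summed histone UMIs was 0.31 for S-phase over below-cut and 3.32 for G2/M over S-phase MuSC-like cells, 1.37 for myocyte-like over below-cut MuSC-like cells, 2.24 for Pdgfra over MuSC-like below-cut cells and 0.92 for MOV over sham, and 2 members were at least 2-fold higher in S-phase cells. In clusters with at least 10 cells of both classes the S-phase ratio was 0.87 and that count 5 of 13. The share over all genes was not computed under the alternatives. The count was 46 of 61 without a minimum, against 32 of 35 with it, and lay between 30 of 33 (cuts lower) and 37 of 39 (cuts higher) under the other 11 alternatives. For S-phase over below-cut cells the other values that moved were 3.89 (mitochondrial limit 5%), 3.58 (resolution 1), 3.04 (cuts 1.5 times lower) and 4.21 (cuts higher), and 7 stayed between 3.65 and 3.72. For G2/M over S-phase cells they were -0.17 (limit 5%), -0.10 (doublets kept), 0.012 (resolution 1), -0.091 (no integration), 0.70 (cuts lower), -0.75 (cuts higher), -0.066 (at least 10000 UMIs), 0.011 (TMM) and -1.32 (G2/M cells below the S cut). For myocyte-like cells they were 0.80 (limit 5%), 1.28 (limit 20%), 1.40 (doublets kept), 1.08 (no integration), 0.75 (histones among the features) and 0.41 (cells below both cuts), 5 stayed between 1.49 and 1.56, and resolution 1 gave no myocyte-like cluster. For Pdgfra over MuSC-like cells they were 0.48 (limit 5%) and 0.53 (cuts higher), and 9 stayed between 0.36 and 0.45. MOV over sham stayed between 0.27 and 0.73 under 12 alternatives, and at the 5% limit (-0.23 to 0.82) and within cluster 1 (-0.20 to 0.76) the interval included no difference. Fibre-like over below-cut MuSC-like cells of sham was 3.53 with TMM scaling and stayed between 2.38 and 2.84 under 11 other alternatives (2.59 as reported), all added after the data had been seen. The cause of each was not tested. The sham classes rest on few cells and UMIs, with 81 histone UMIs in 80 below-cut MuSC-like cells.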

Other observations

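The MOV cells of the fibre-like clusters went against that name: Myog was at 2253 CPM, above the 1719 CPM of myocyte-like cells, and Acta1 at 8925 CPM against 53782 CPM in sham. Their number also depended on the settings, with 113 cells here, 17 without integration, 32 with the 20% mitochondrial limit and 36 with shared barcodes left out, where cluster 7 (77 MOV cells) no longer took the fibre name. The 113 cells summed to 436 CPM, led by Hist1h2bc with 26.7%, Hist1h2ap with 19.9% and Hist1h2ae with 8.93% of histone UMIs, where the fibre-like cells of sham had 31.1% from Hist1h2bc, 23.6% from Hist1h1c, 16.7% from Hist1h4h and 16.5% from Hist1h4i. In MOV, Hist1h4i was at 18.1 CPM in cluster 7 (77 cells, Myog at 2579 CPM) and in sham at 138 CPM in the same cluster (79 cells, Myog at 1.86 CPM). The median depth there was 62765 and 11478 UMIs, and with Myog and depth both this far apart no comparison was made.

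In sham, the 9 G2/M MuSC-like cells, of which 6 carried barcodes shared with the MOV library, held 1510.5 histone CPM (2339 CPM in the other 3), with Hist1h2ap at 76.2% of H2A and Hist1h1b at 55.6% of H1 UMIs. Across members, the Spearman rho of CPM was 0.89 between S-phase MuSC-like and S-phase Pdgfra cells of MOV (62 members), 0.72 between S-phase and below-cut MuSC-like cells (61) and 0.85 between below-cut MuSC-like and below-cut Pdgfra cells (53). These are descriptions across genes of 1 library, and the depth of the classes differed.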
